A study of Mus musculus with 8 samples.

Results

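Translation initiation factors are the proteins that bring the small ribosomal subunit, the initiator tRNA and a capped mRNA together at a start codon. In the count matrix of splenic B cells they were taken as every gene symbol that begins with Eif1 to Eif6, except Eif2ak2, an interferon-induced kinase, with a value in all 8 libraries. Of the 24902 symbols in the matrix, 56 match this pattern, and 52 met the rule. Besides Eif2ak2, the symbols left out were Eif2s3y, Eif4e1b and Eif2c5, which had no value in some libraries.

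The study asked whether overexpression of PRMT5, an arginine methyltransferase, drives chronic lymphocytic leukemia towards an aggressive lymphoma. Bulk RNA-seq was performed on pan-B cells purified from spleens of C57BL/6N mice that met early removal criteria (ERC), which are predefined signs of disease. The mice were 4 Eµ-PRMT5 (transgene Eµ-hPRMT5), 3 Eµ-PRMT5/TCL1 (Eµ-hPRMT5/hTCL1) and 1 Eµ-TCL1 (Eµ-hTCL1), where each transgene is a human cDNA that an immunoglobulin heavy chain promoter and Eµ enhancer express in B cells. Every mouse therefore carried a B cell transgene, no mouse without a transgene was analysed here, and the labels used here give no ages. With 1 Eµ-TCL1 mouse, each comparison with that genotype asks only where this animal lay relative to the spread of the other mice.

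Initiation begins when eIF2, bound to GTP, delivers the initiator tRNA to a small subunit that carries eIF1, eIF1A and eIF3. The cap-binding complex eIF4F, made of eIF4E, the helicase eIF4A and the scaffold eIF4G, recruits this assembly to the mRNA, and 4E-BP proteins block eIF4E when the kinase mTORC1 is inactive. Stress kinases phosphorylate the alpha subunit of eIF2 and thereby hold back the exchange factor eIF2B, which lowers general initiation while the transcription factor ATF4 is still made. In B cell malignancies, cap-dependent initiation is known for its role in the synthesis of proteins such as MYC and cyclin D.

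The libraries held between 3356297 and 10252426 counts. Initiation factors made up 1.37%, 1.63%, 1.09% and 1.78% of the counts in mice 1 to 4 of Eµ-PRMT5, 1.34%, 1.38% and 1.29% in mice 1 to 3 of Eµ-PRMT5/TCL1, and 1.08% in the Eµ-TCL1 animal (95% Wilson intervals within 0.0113 percentage points of each value, for counting error only). The lowest shares belonged to the shallowest libraries, those of the Eµ-TCL1 animal and Eµ-PRMT5 mouse 3, and the highest to the deepest, that of Eµ-PRMT5 mouse 4. The B cell markers Cd79a, Cd79b, Ms4a1, Pax5, Cd22, Blk and Cd5 were measured in every library. Levels are given as CPM, counts scaled to a common library size with TMM factors, or as log2 CPM. Cd79a, a chain of the B cell receptor complex, stood between 411 CPM in Eµ-PRMT5 mouse 4 and 2115 CPM in Eµ-PRMT5/TCL1 mouse 3, and Pax5, a B cell transcription factor, between 65.9 CPM in Eµ-PRMT5/TCL1 mouse 1 and 162 CPM in Eµ-PRMT5 mouse 1.

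Of the 52 genes, 51 passed the filter on low counts, and these are the genes counted below. Eif4ebp3, which encodes a further 4E-BP, did not pass it, with 3, 3, 1 and 11 counts in Eµ-PRMT5 mice, 1, 6 and 0 in Eµ-PRMT5/TCL1 mice and 0 in the Eµ-TCL1 animal. A count of 0 allows up to 3 counts, which is 0.461 CPM in Eµ-PRMT5/TCL1 mouse 3 and 0.811 CPM in the Eµ-TCL1 animal. Per kilobase of exon, the most abundant transcripts were those of Eif5a, which promotes elongation and termination, at a mean of 708 CPM per kb over the 8 mice, Eif1, which guards start codon choice, at 460.1 CPM per kb, and the eIF3 subunit gene Eif3b, at 164 CPM per kb. The lowest of the tested genes on the same scale were Eif5a2, the second eIF5A gene, at 0.599 CPM per kb, the kinase gene Eif2ak4 at 4.69 CPM per kb, and Eif3j2 at 8.30 CPM per kb. In the transcript models, 84.0% of the 100-base words of Eif3j2 also occur in other genes, chiefly its near-identical relative, so its counts are uncertain.

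The promoters of several cap-binding complex genes carry the E-box CACGTG, the sequence that MYC with MAX and other factors of that family can bind. RefSeq promoter windows (GRCm38.p6, 250 bases before to 50 after a start) were found for 41 of the 52 genes, and CACGTG, which reads the same on both strands, was present in 10 of them (24.4%). It was present in 8.1% of all 27025 genes with a window, in 11.3% of the 10156 tested genes with one, and in 9.8% of 61 cytosolic ribosomal protein genes. The genes with the E-box were Eif1b, Eif3a, Eif3f, Eif3k, Eif4a1, Eif4e, Eif4g1, Eif4h, Eif5a and Eif5a2. The sites of the eIF4F subunits and of Eif5a are shown as 30 bases each, 5′ to 3′ on the strand of the gene, with the E-box in capitals, because these genes recur in the comparisons that follow.
Eif4e, chr3:138527028-138527057, plus strand: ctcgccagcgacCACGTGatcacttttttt
Eif4e, chr3:138527192-138527221, plus strand: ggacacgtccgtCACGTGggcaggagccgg
Eif4g1, chr16:20672661-20672690, plus strand: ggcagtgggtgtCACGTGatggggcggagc
Eif4g1, chr16:20672730-20672759, plus strand: ctctgcgccggtCACGTGgggcgctggctg
Eif4a1, chr11:69672595-69672624, minus strand: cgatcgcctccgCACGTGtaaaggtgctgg
Eif5a, chr11:69920791-69920820, minus strand: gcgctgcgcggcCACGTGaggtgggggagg
Eif5a, chr11:69921443-69921472, minus strand: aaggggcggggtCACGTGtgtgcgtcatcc
A run of at least 8 C or T within 25 bases of a start, the kind of sequence that marks mRNAs of ribosomal proteins, was found in 10 of the 41 genes (24.4%). This share was 22.3% over all genes and 52.5% over the ribosomal protein genes (a run can share with an E-box only its first C). The presence of these letters is a description and no binding was measured.

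The level of the initiation factors as a set differed more among Eµ-PRMT5 mice than between genotypes. The mean over the 51 genes was 7.35, 7.54, 6.87 and 7.82 log2 CPM in mice 1 to 4 of Eµ-PRMT5, 7.27, 7.30 and 7.21 log2 CPM in mice 1 to 3 of Eµ-PRMT5/TCL1, and 6.86 log2 CPM in the Eµ-TCL1 animal. All 3 double transgenic mice thus lay inside the Eµ-PRMT5 range, and the Eµ-TCL1 animal lay just below Eµ-PRMT5 mouse 3. For 38 of the 51 genes the 3 double transgenic values all fell between the lowest and the highest Eµ-PRMT5 value, compared with 53.7% of all tested genes, a share that the unequal group sizes favour. The standard deviation (SD) was larger among Eµ-PRMT5 than among Eµ-PRMT5/TCL1 mice for 47 of the 51 genes, and for 77.2% of all tested genes.

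**Figure D1:**
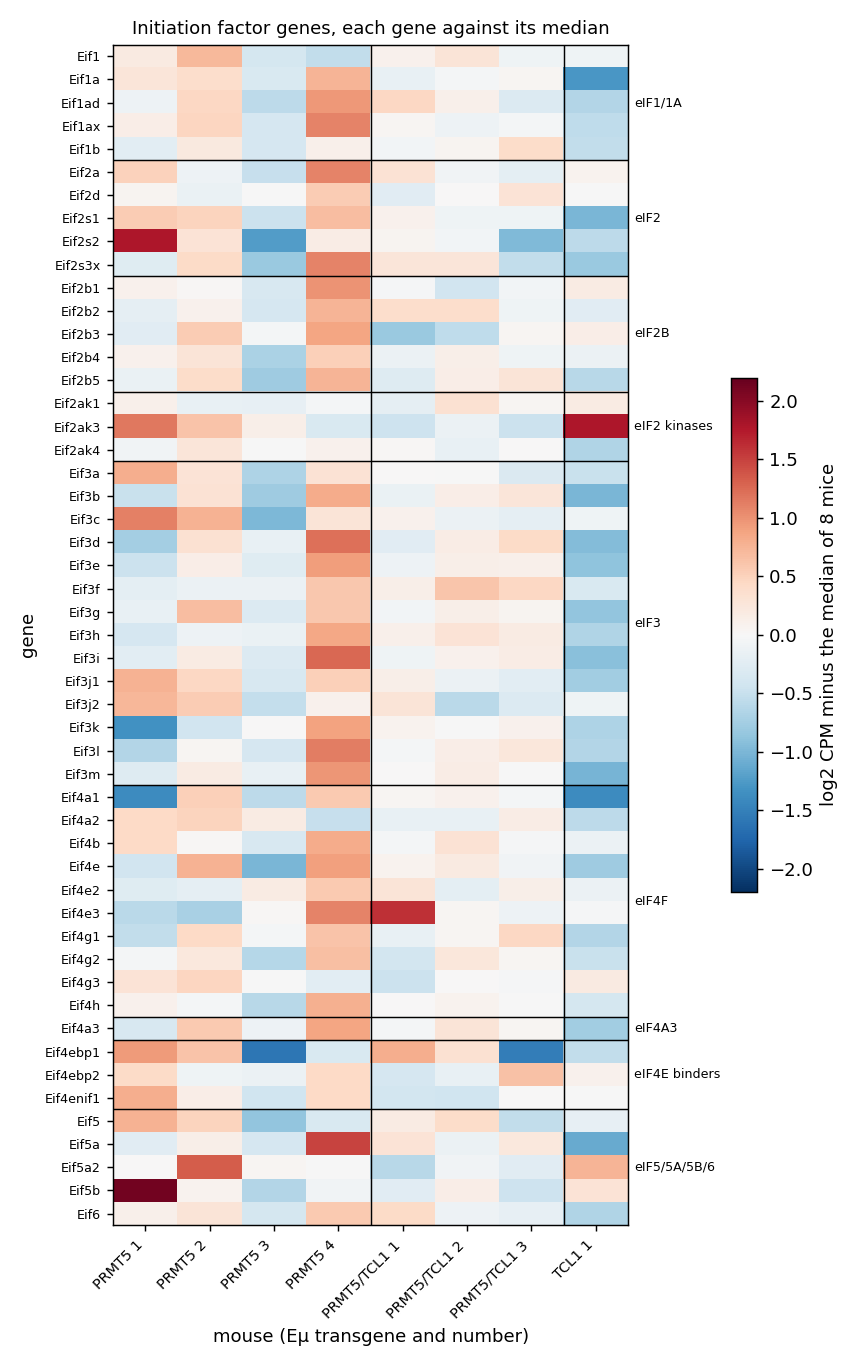
Log2 CPM of each of the 51 tested initiation factor genes (rows, grouped by complex) in each mouse (columns), minus the median of that gene over the 8 mice, with red above and blue below the median. Eµ-PRMT5 mouse 4 was the highest of 8 for 30 genes, and the Eµ-TCL1 animal was the lowest for 22 genes and Eµ-PRMT5 mouse 3 for 15.

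Eµ-PRMT5 mice 3 and 4 stood at opposite ends for most of these genes. They were compared after they were seen to have the lowest and the highest mean of this genotype over the same 51 genes. That choice favours the counts that follow, and all genes together were not chosen in this way. Mouse 4 was above mouse 3 for 46 of the 51 genes, and above it for 49.1% of all tested genes. It was the highest of the 8 mice for 30 genes, compared with 20.1% of all tested genes, while mouse 3 was the lowest for 15 genes, compared with 14.3% of all tested genes. Relative to the mean of the 4 Eµ-PRMT5 mice, the median gene lay 0.53 below in mouse 3 and 0.51 above in mouse 4 on the log2 scale. Most marker lists also differed between mice 3 and 4, each in its own order. The 8 B cell markers averaged 8.75, 8.33, 9.06 and 7.59 log2 CPM in mice 1 to 4 of Eµ-PRMT5, with mouse 4 the lowest of 8. They averaged 8.05, 8.65 and 9.29 in Eµ-PRMT5/TCL1 mice and 8.15 in the Eµ-TCL1 animal. The erythroid list, with 5 of 9 genes tested, averaged 3.39 in mouse 3 and 5.94, the highest of 8, in mouse 4. The macrophage list, with 4 of 9 genes tested, averaged 5.79 and 6.06 in these mice, which were close to each other. Its highest mean of the 8 mice was 6.87, in Eµ-PRMT5/TCL1 mouse 1. The proliferation markers, all 10 of them tested and including Mki67, Top2a and Cdk1, had a mean of 5.52, 4.87, 6.33 and 9.01 log2 CPM in mice 1 to 4 of Eµ-PRMT5, 7.52, 6.68 and 7.71 in Eµ-PRMT5/TCL1 mice and 6.00 in the Eµ-TCL1 animal, so that mouse 4 was the highest of all. The 5 tested of 8 T cell markers averaged 3.53, 3.88, 6.16 and 3.09 log2 CPM in Eµ-PRMT5 mice, 3.86, 3.26 and 3.13 in Eµ-PRMT5/TCL1 mice and 3.89 in the Eµ-TCL1 animal, with mouse 3 of Eµ-PRMT5 the highest. The 12 neutrophil markers averaged 6.47, 6.01, 3.97 and 7.89 log2 CPM in Eµ-PRMT5 mice, 8.23, 7.30 and 4.78 in Eµ-PRMT5/TCL1 mice and 4.78 in the Eµ-TCL1 animal. By the numbers in the library titles, the paper's histology showed anaplastic large lymphocytes with histiocytes in Eµ-PRMT5 mouse 3. In mouse 4 it showed sheets of small lymphocytes. The part of cell types and of histology in the levels of initiation factors was not tested. For depth, only a fit to libraries thinned to the smallest total was run, and its values are given with the other settings below. In bulk RNA, fewer cells of a type and less RNA per cell cannot be told apart.

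By complex, the means of the replicated genotypes differed by less than the SD among Eµ-PRMT5 mice for every complex except the eIF2 alpha kinases. The 10 tested genes of eIF4F and its helicase cofactors averaged 7.65, 8.05, 7.57 and 8.38 log2 CPM in mice 1 to 4 of Eµ-PRMT5, 7.93, 7.92 and 7.90 in Eµ-PRMT5/TCL1 mice and 7.42 in the Eµ-TCL1 animal. The 14 eIF3 genes averaged 7.43, 7.78, 7.18 and 8.29 log2 CPM in Eµ-PRMT5 mice, 7.55, 7.62 and 7.61 in the double transgenic mice and 6.87 with Eµ-TCL1 alone. In both complexes the double transgenic values were nearly equal and sat in the middle of the Eµ-PRMT5 range, and the Eµ-TCL1 animal was the lowest of 8. The mean of the 3 eIF2 alpha kinase genes stood in another order, with 6.63, 6.48, 6.21 and 6.14 log2 CPM in Eµ-PRMT5 mice, 6.02, 6.25 and 6.09 in Eµ-PRMT5/TCL1 mice and 6.66, the highest of 8, in the Eµ-TCL1 animal. That last value came from Eif2ak3 alone. In the same animal Eif2ak1 lay inside the range of the other 7 mice and Eif2ak4 was the lowest of 8. Their group means were 6.37 ± 0.23 (SD, n = 4) and 6.12 ± 0.12 (SD, n = 3).

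**Figure D2:**
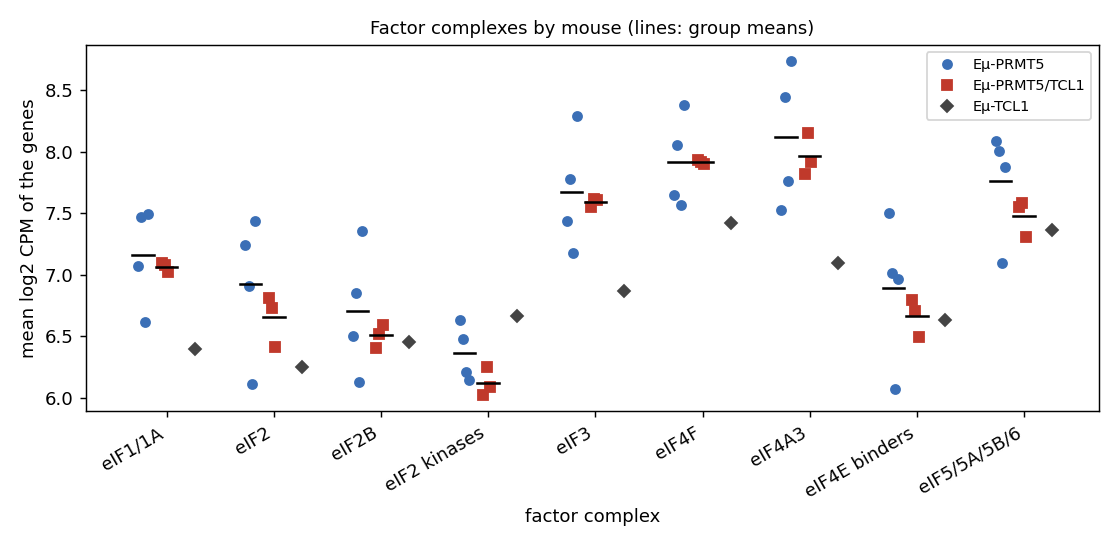
Mean log2 CPM (vertical axis) of the tested genes of each factor complex (horizontal axis), with 1 point per mouse and lines at the means of the replicated genotypes. The Eµ-TCL1 animal lay below all other mice for eIF1/1A, eIF3, eIF4F and eIF4A3, and above all others for the mean of the eIF2 kinases, which Eif2ak3 sets.

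Double transgenic mice were first compared with Eµ-PRMT5 mice, which lack the TCL1 transgene. The mice were all taken at ERC, and the paper reports a shorter median survival for the double transgenic line. Age and type of disease at ERC therefore cannot be told apart from the transgene here. No initiation factor gene passed an adjusted p of 0.05 (edgeR quasi-likelihood test with Benjamini-Hochberg adjustment), and neither did any of the 13173 tested genes (0%). DESeq2 called 0 initiation factor genes (0.0304% of all genes). At an unadjusted p under 0.05 there was 1 gene by edgeR (2.17% of all tested genes) and by DESeq2 (3%), which was lower in double transgenic mice (1.21% of all tested genes), and 0 were higher (0.957%). The count was 0 with upper-quartile scaling (1.91% of all tested genes) or library size alone (1.92%). It was also 0 with NA counted as 0 (2.06%), with the 2 genotypes fitted alone (2.09%), or with a minimum of 10 counts per library (2.07%). The median log2 fold change was -0.20 over the 51 genes and -0.09 over all tested genes, and 9 of the 51 had a log2 fold change above 0, compared with 40.6% of all genes. With upper-quartile scaling the median was -0.09 and 17 of the 51 lay above 0, compared with 46.8% of all genes. This lean to lower values rested on Eµ-PRMT5 mouse 4. Without it the median of the 51 genes was 0.03 and 30 of them lay above 0, compared with 43.9% of all genes.

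That 1 gene was Eif2ak3, which encodes PERK, the kinase that phosphorylates eIF2 alpha when unfolded proteins accumulate in the endoplasmic reticulum (chr6:70844515-70905245, GRCm38, plus strand). It was measured at 129, 89.8, 63.1 and 46.0 CPM in mice 1 to 4 of Eµ-PRMT5, 42.0, 53.0 and 41.5 CPM in mice 1 to 3 of Eµ-PRMT5/TCL1 and 199 CPM in the Eµ-TCL1 animal. All 3 double transgenic mice were low, Eµ-PRMT5 mouse 4 lay among them, and the Eµ-TCL1 animal was the highest. The group means were 82.1 ± 36.4 CPM (SD, n = 4) and 45.5 ± 6.54 CPM (SD, n = 3), and the fitted log2 fold change was -0.85 ± 0.39 (SE), with an unadjusted p of 0.049 and an adjusted p of 1.00. The unadjusted p ran from 0.051 to 0.0625 in the settings named above that gave a count of 0. Without Eµ-PRMT5 mouse 1, the highest of the 4, the log2 fold change was -0.52. An antisense gene, Gm43292, overlaps an exon of Eif2ak3, and whether the counting used strand is not given in the sources used here.

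The other kinase genes varied little. Eif2ak4, which encodes GCN2, the sensor of uncharged tRNA, was measured at 34.1, 43.4, 35.8 and 38.6 CPM in mice 1 to 4 of Eµ-PRMT5, 36.7, 32.03 and 36.1 CPM in mice 1 to 3 of Eµ-PRMT5/TCL1 and 22.7 CPM in the Eµ-TCL1 animal. Eif2ak1, which encodes the heme-regulated kinase HRI, was measured at 216, 180.2, 177 and 196 CPM in mice 1 to 4 of Eµ-PRMT5, 175, 255 and 207 CPM in mice 1 to 3 of Eµ-PRMT5/TCL1 and 227 CPM in the Eµ-TCL1 animal. These were the genes of smallest within-group SD among the initiation factors, at 0.13 and 0.20 on the log2 scale, ahead of Eif1b at 0.26, and their fitted log2 fold changes were -0.12 ± 0.33 and 0.14 ± 0.31 (SE). The Eµ-TCL1 animal had the lowest Eif2ak4 value of the 8 mice. The median within-group SD was 0.47 over the 51 genes and 0.60 over all tested genes. It was 0.46 over the 2320 tested genes whose mean log2 CPM lay between the lower and upper quartiles of the 51 genes.

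The next smallest p-values in this comparison belonged to Eif2b3, Eif5b and Eif4enif1. Eif2b3, a subunit on the catalytic side of the exchange factor eIF2B, was measured at 67.2, 118, 78.0 and 146 CPM in mice 1 to 4 of Eµ-PRMT5, 45.6, 54.5 and 82.2 CPM in mice 1 to 3 of Eµ-PRMT5/TCL1 and 88.9 CPM in the Eµ-TCL1 animal. Double transgenic mice 1 and 2 were the lowest of 8 and mouse 3 lay among the Eµ-PRMT5 values, with a fitted log2 fold change of -0.75 ± 0.38 (SE, unadjusted p = 0.070 by edgeR). Eif5b, the GTPase that joins the large ribosomal subunit, stood at 1072, 259.6, 157 and 234 CPM in mice 1 to 4 of Eµ-PRMT5, 208, 272 and 179 CPM in mice 1 to 3 of Eµ-PRMT5/TCL1 and 304 CPM in the Eµ-TCL1 animal. A single library, Eµ-PRMT5 mouse 1, set its fold change of -0.97 ± 0.60 (SE, unadjusted p = 0.131 by edgeR), and without that mouse the value was 0.03. Eif5b also overlaps Rev1 on the other strand and shares 11.7% of its 100-base words with other genes. Eif4enif1, the eIF4E transporter that carries eIF4E into the nucleus and to sites of mRNA repression, was measured at 183, 117, 77.7 and 143 CPM in mice 1 to 4 of Eµ-PRMT5, 79.4, 78.2 and 106 CPM in mice 1 to 3 of Eµ-PRMT5/TCL1 and 105 CPM in the Eµ-TCL1 animal, with a log2 fold change of -0.57 ± 0.36 (SE, unadjusted p = 0.136 by edgeR).

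Eif5a2 was the 1 gene of 51 whose replicated genotypes did not overlap, compared with 1.59% of all tested genes lower in every double transgenic mouse and 1.35% higher. It encodes the less widely expressed eIF5A protein, and was measured at 2.44, 6.65, 2.51 and 2.42 CPM in mice 1 to 4 of Eµ-PRMT5, 1.48, 2.29 and 2.00 CPM in mice 1 to 3 of Eµ-PRMT5/TCL1 and 4.33 CPM in the Eµ-TCL1 animal. These values rest on 9 to 42 counts per library, Eµ-PRMT5 mouse 2 stood apart from the other 3, and the fitted log2 fold change of -0.86 ± 0.66 (SE) had an unadjusted p of 0.213 by edgeR. Without mouse 2 of Eµ-PRMT5 the log2 fold change was -0.35.

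**Figure D3:**
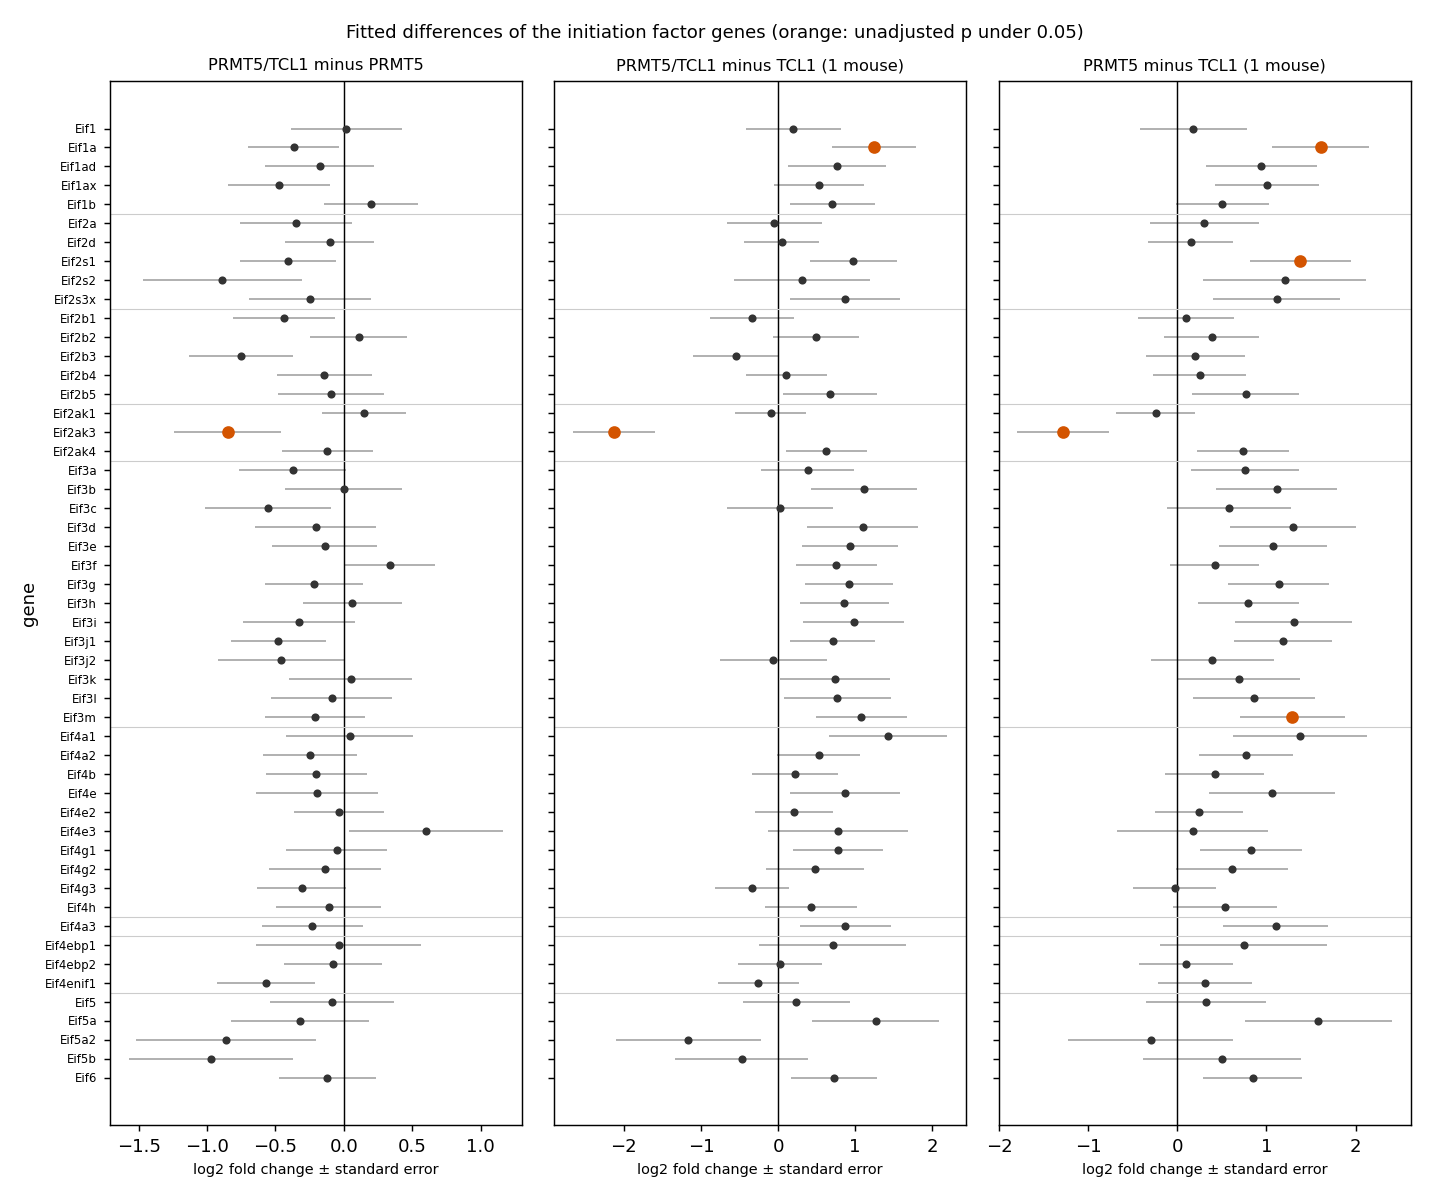
Fitted log2 fold changes (horizontal axis, edgeR, with standard errors as bars) of the 51 initiation factor genes (rows, grouped by complex) in the 3 comparisons, with unadjusted p under 0.05 in orange. Most values lay just below 0 between the replicated genotypes, and above 0 against the single Eµ-TCL1 animal, for 41 genes in Eµ-PRMT5/TCL1 and 47 in Eµ-PRMT5 mice, with Eif2ak3 far on the other side.

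For the cap-binding complex, the replicated genotypes overlapped in the levels of its genes and in the balance between them. Eif4e, which encodes the cap-binding protein, was measured at 108, 248, 72.0 and 272 CPM in mice 1 to 4 of Eµ-PRMT5, 154, 167 and 138 CPM in mice 1 to 3 of Eµ-PRMT5/TCL1 and 84.1 CPM in the Eµ-TCL1 animal. The double transgenic values lay inside the Eµ-PRMT5 range, and the log2 fold change was -0.20 ± 0.45 (SE, unadjusted p = 0.668 by edgeR). Eif4a1, the main cytosolic eIF4A helicase, was measured at 234, 873, 412 and 905 CPM in mice 1 to 4 of Eµ-PRMT5, 630.0, 651 and 591 CPM in mice 1 to 3 of Eµ-PRMT5/TCL1 and 233 CPM in the Eµ-TCL1 animal. Eµ-PRMT5 mouse 1 and the Eµ-TCL1 animal were the low ones, at almost equal values, and 22.6% of the 100-base words of Eif4a1 also occur in other genes. Its relative Eif4a2, which overlaps Rfc4 on the other strand, was measured at 323, 336, 271 and 169 CPM in mice 1 to 4 of Eµ-PRMT5, 213, 215 and 267 CPM in mice 1 to 3 of Eµ-PRMT5/TCL1 and 161 CPM in the Eµ-TCL1 animal, so that Eµ-PRMT5 mouse 4 combined the highest Eif4a1 with the second lowest Eif4a2. The scaffold gene Eif4g1 was measured at 177, 352, 251 and 402 CPM in mice 1 to 4 of Eµ-PRMT5, 231, 267 and 356 CPM in mice 1 to 3 of Eµ-PRMT5/TCL1 and 166 CPM in the Eµ-TCL1 animal. Eif4g2, whose protein lacks the eIF4E site and serves cap-independent initiation, was measured at 1115, 1355, 744 and 1818 CPM in mice 1 to 4 of Eµ-PRMT5, 873, 1368 and 1187 CPM in mice 1 to 3 of Eµ-PRMT5/TCL1 and 820.3 CPM in the Eµ-TCL1 animal.

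Ratios between 2 genes within a library need no scaling between libraries, and 6 of them were compared. The log2 ratio of Eif4a1 to Eif4a2 was -0.47, 1.38, 0.61 and 2.42 in mice 1 to 4 of Eµ-PRMT5, 1.56, 1.60 and 1.15 in Eµ-PRMT5/TCL1 mice and 0.53 in the Eµ-TCL1 animal. The helicase genes were thus of nearly fixed balance in double transgenic mice and spread from below 0 to above 2 in Eµ-PRMT5 mice, and the difference of means was 0.45 (two-sided exact permutation test, p = 0.629, n = 4 and 3). The differences, as double transgenic minus Eµ-PRMT5, were 0.05 (two-sided exact permutation test, p = 0.943) for Eif4e to Eif4ebp1, 0.13 (two-sided exact permutation test, p = 0.8286) for Eif4e to Eif4ebp2 and 0.08 (two-sided exact permutation test, p = 1) for Eif4ebp1 to Eif4ebp2. Those of Eif4g1 to Eif4g2 and of Eif2s1 to Eif2ak4 were 0.08 (two-sided exact permutation test, p = 0.800) and -0.23 (two-sided exact permutation test, p = 0.457). All Benjamini-Hochberg adjusted values over the 6 ratios were 1, and the smallest p that 4 against 3 mice allow is 0.0286.

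**Figure D4:**
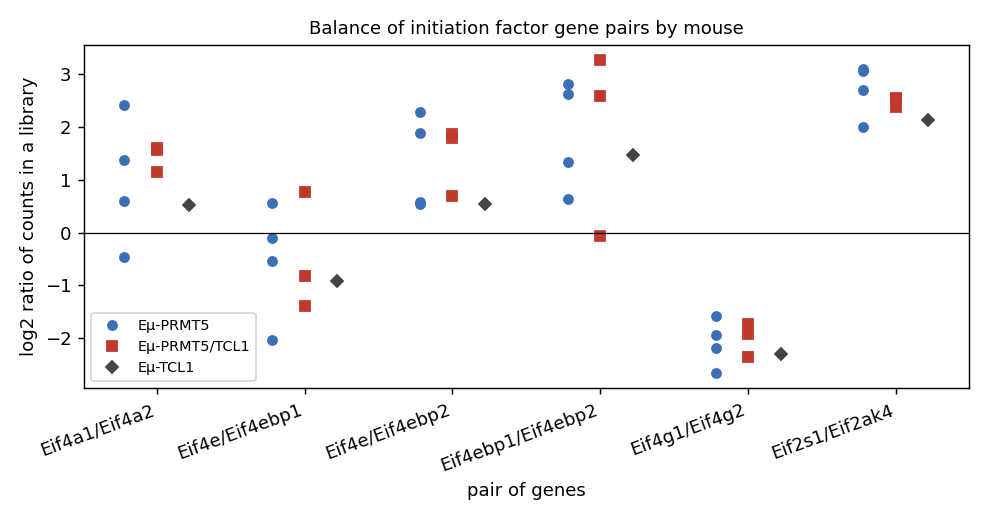
Log2 ratio of the counts of 2 initiation factor genes in the same library (vertical axis) for 6 pairs (horizontal axis), with 1 point per mouse. The points of Eµ-PRMT5/TCL1 mice overlap those of Eµ-PRMT5 mice in every pair, and the Eif4ebp1 to Eif4ebp2 ratio runs from -0.06 to 3.26 within the double transgenic mice.

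Eif4ebp1, the gene of the mTORC1-regulated repressor 4E-BP1 and a known target of ATF4, varied more between mice of 1 genotype than any other initiation factor gene, with a within-group SD of 1.17 on the log2 scale (chr8:27260329-27276674, GRCm38, plus strand). It was measured at 444, 360.0, 77.3 and 184 CPM in mice 1 to 4 of Eµ-PRMT5, 403, 294 and 81.0 CPM in mice 1 to 3 of Eµ-PRMT5/TCL1 and 159 CPM in the Eµ-TCL1 animal. Each replicated genotype held mice with high values and at least 1 with a low value, mouse 3 in both cases, and the fitted log2 fold change between them was -0.04 ± 0.60 (SE, unadjusted p = 0.949 by edgeR), a value whose sign turned under another scaling. Eif4ebp2, the second 4E-BP gene, did not follow it, at 72.5, 51.0, 49.7 and 73.4 CPM in mice 1 to 4 of Eµ-PRMT5, 42.0, 48.6 and 84.7 CPM in mice 1 to 3 of Eµ-PRMT5/TCL1 and 57.6 CPM in the Eµ-TCL1 animal.

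Of the 9 genes that respond to eIF2 phosphorylation, 5 had their lowest values in the same few mice and 4 did not. The mean of that list, all of it tested, was 6.66, 6.995, 4.94 and 5.42 log2 CPM in mice 1 to 4 of Eµ-PRMT5, 6.75, 6.25 and 4.68 in Eµ-PRMT5/TCL1 mice and 6.84 in the Eµ-TCL1 animal. Trib3, a pseudokinase induced by ATF4 and CHOP, stood at 105, 139.9, 11.4 and 7.15 CPM in mice 1 to 4 of Eµ-PRMT5, 116, 65.3 and 5.07 CPM in mice 1 to 3 of Eµ-PRMT5/TCL1 and 83.5 CPM in the Eµ-TCL1 animal. Chac1, a glutathione-degrading enzyme, stood at 82.4, 119, 6.61 and 8.30 CPM in mice 1 to 4 of Eµ-PRMT5, 51.6, 53.2 and 5.84 CPM in mice 1 to 3 of Eµ-PRMT5/TCL1 and 57.0 CPM in the Eµ-TCL1 animal. Eµ-PRMT5 mice 3 and 4 and Eµ-PRMT5/TCL1 mouse 3 thus had the lowest Trib3 and Chac1 of the 8 mice, and likewise the lowest Sesn2, Ddit3 and Atf4. Sesn2 encodes an inhibitor of mTORC1 signaling and was at 229.7, 304, 47.9 and 29.9 CPM in mice 1 to 4 of Eµ-PRMT5, 195, 330.1 and 35.2 CPM in mice 1 to 3 of Eµ-PRMT5/TCL1 and 245 CPM in the Eµ-TCL1 animal. Ddit3, which encodes CHOP, was at 103, 112, 17.6 and 53.7 CPM in mice 1 to 4 of Eµ-PRMT5, 93.5, 103 and 19.8 CPM in mice 1 to 3 of Eµ-PRMT5/TCL1 and 89.2 CPM in the Eµ-TCL1 animal. Atf4 itself was at 467, 403, 119 and 137 CPM in mice 1 to 4 of Eµ-PRMT5, 225, 243 and 158 CPM in mice 1 to 3 of Eµ-PRMT5/TCL1 and 211 CPM in the Eµ-TCL1 animal. The other genes of the list, Ppp1r15a, Ppp1r15b, Asns and Atf5, stood in other orders. Ppp1r15a, which encodes the eIF2 phosphatase subunit GADD34, was at 306, 615, 386 and 150.2 CPM in mice 1 to 4 of Eµ-PRMT5, 193, 269 and 426 CPM in mice 1 to 3 of Eµ-PRMT5/TCL1 and 264 CPM in the Eµ-TCL1 animal. Mouse 3 of Eµ-PRMT5/TCL1 was thus the highest of its group. Asns, which encodes asparagine synthetase, was at 86.5, 137, 20.1 and 205 CPM in mice 1 to 4 of Eµ-PRMT5, 240.2, 29.9 and 9.37 CPM in mice 1 to 3 of Eµ-PRMT5/TCL1 and 130.04 CPM in the Eµ-TCL1 animal. It was low in mouse 3 of both genotypes but second highest of 8 in Eµ-PRMT5 mouse 4. For Eif4ebp1 the lowest values were those of mouse 3 of each replicated genotype, followed by the Eµ-TCL1 animal, so the match with these genes was incomplete. These 8 mice were compared after their values had been seen, the groups of the study do not separate them, and no test was made.

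**Figure D5:**
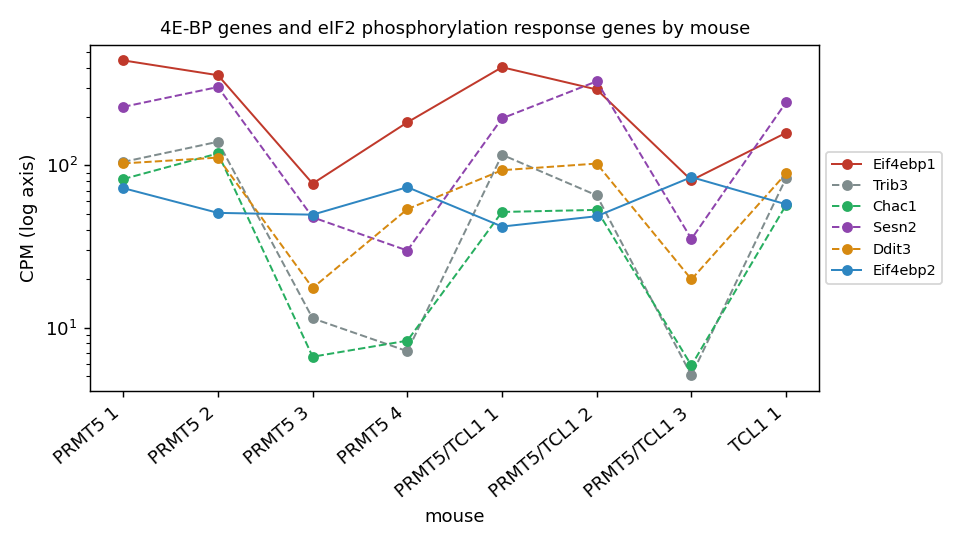
CPM on a log axis (vertical) of Eif4ebp1, Eif4ebp2 and 4 of the 9 genes that respond to eIF2 phosphorylation, picked after their values were seen, in each mouse (horizontal). Eif4ebp1, Trib3, Chac1, Sesn2 and Ddit3 were all low in mouse 3 of Eµ-PRMT5 and mouse 3 of Eµ-PRMT5/TCL1, where Eif4ebp2 was at 49.7 and 84.7 CPM.

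The genes of eIF2 itself had some of the widest spreads. Eif2s2, the beta subunit gene, was measured at 654, 236, 80.9 and 213 CPM in mice 1 to 4 of Eµ-PRMT5, 198, 184 and 97.1 CPM in mice 1 to 3 of Eµ-PRMT5/TCL1 and 128 CPM in the Eµ-TCL1 animal, an 8.08-fold span over the 7 replicated mice and an SD of 1.02 within groups, the widest after Eif4ebp1. Eµ-PRMT5 mouse 1 was far above the others, and mouse 3 of each genotype was low. The alpha subunit gene Eif2s1, whose product carries the phosphorylated serine, was measured at 294, 280.4, 143 and 321 CPM in mice 1 to 4 of Eµ-PRMT5, 212, 187 and 187 CPM in mice 1 to 3 of Eµ-PRMT5/TCL1 and 99.8 CPM in the Eµ-TCL1 animal, with a log2 fold change between the replicated genotypes of -0.41 ± 0.35 (SE, unadjusted p = 0.269 by edgeR). Eµ-PRMT5 mouse 3 and the Eµ-TCL1 animal had the lowest values.

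The gamma subunit is encoded by a pair of genes, Eif2s3x on the X and Eif2s3y on the Y chromosome. Eif2s3y had 195 counts in Eµ-PRMT5 mouse 3, 428 in Eµ-PRMT5/TCL1 mouse 3 and 6 in the Eµ-TCL1 animal, and no value in the other 5 libraries. These are 44.5, 65.8 and 1.62 CPM. The Y-linked helicase gene Ddx3y had values in the same 3 libraries, with 251, 439 and 31 counts, and so did Uty, with 85, 154 and 20. Kdm5d, also Y-linked, had 148 and 255 counts in mouse 3 of Eµ-PRMT5 and of Eµ-PRMT5/TCL1, and no value in the Eµ-TCL1 animal. Xist, the RNA of the inactive X chromosome, had between 524 and 734 counts in the 5 libraries without Eif2s3y values, 7 counts in Eµ-PRMT5 mouse 3 and no value in the other 2. Eif2s3x, which escapes X inactivation, was measured at 72.2, 117, 49.2 and 186 CPM in mice 1 to 4 of Eµ-PRMT5, 105, 105 and 59.3 CPM in mice 1 to 3 of Eµ-PRMT5/TCL1 and 48.9 CPM in the Eµ-TCL1 animal. Its 3 lowest values were those of the libraries with Eif2s3y counts. The same was true of the X-linked helicase gene Ddx3x, at 590.2, 256, 137 and 291 CPM in mice 1 to 4 of Eµ-PRMT5, 191, 246 and 131 CPM in mice 1 to 3 of Eµ-PRMT5/TCL1 and 95.2 CPM in the Eµ-TCL1 animal. Of the 51 genes, the Eµ-TCL1 animal was the lowest of 8 for 22 and Eµ-PRMT5 mouse 3 for 15. The labels give no sex, and the 3 mice span all genotypes. The part of sex in the low values of mouse 3 of both replicated genotypes was not tested. The difference of Eif2s3x between the replicated genotypes was -0.25 ± 0.45 (SE, unadjusted p = 0.592 by edgeR). In the gene models, 33.7% of the 100-base words of Eif2s3x also occur in other genes.

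Among the late-acting factors, Eif5a was measured at 1218, 1586, 1122 and 4068 CPM in mice 1 to 4 of Eµ-PRMT5, 1784, 1315 and 1704 CPM in mice 1 to 3 of Eµ-PRMT5/TCL1 and 667 CPM in the Eµ-TCL1 animal. Eµ-PRMT5 mouse 4 was more than 2-fold above all others, and the fold change between the replicated genotypes was -0.32 ± 0.50 on the log2 scale (SE, unadjusted p = 0.537 by edgeR). Eif6, which keeps the large subunit from joining too early, was measured at 345, 387, 243 and 477 CPM in mice 1 to 4 of Eµ-PRMT5, 424, 294 and 282 CPM in mice 1 to 3 of Eµ-PRMT5/TCL1 and 202 CPM in the Eµ-TCL1 animal. Its groups overlapped and the Eµ-TCL1 animal was the lowest. Eif1, the start codon gatekeeper, was the 1 gene for which Eµ-PRMT5 mouse 4 was the lowest of 8, at 1053, 1505, 708 and 633 CPM in mice 1 to 4 of Eµ-PRMT5, 985, 1116 and 861 CPM in mice 1 to 3 of Eµ-PRMT5/TCL1 and 861 CPM in the Eµ-TCL1 animal.

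The comparisons with the Eµ-TCL1 animal ask only where this animal lay relative to mice with the PRMT5 transgene, alone or with TCL1. They share that animal and are given side by side. No initiation factor gene and no other tested gene (0%) passed an adjusted p of 0.05 in either comparison by edgeR, and DESeq2 called 0 initiation factor genes (0.155% and 0.137% of the genes to which it gave an adjusted p). The median log2 fold change of the 51 genes was 0.62 for Eµ-PRMT5/TCL1 against Eµ-TCL1 and 0.74 for Eµ-PRMT5 against Eµ-TCL1, where the medians of all tested genes were -0.07 and 0.04. At an unadjusted p under 0.05 there were 2 genes in the first comparison by edgeR (6.09% of all genes), 1 higher (1.75%) and 1 lower (4.33%). In the second there were 4 (6.78% of all genes), 3 higher (1.96%) and 1 lower (4.82%). DESeq2 gave 3 genes in the first (7.08% of all genes) and 10 in the second (8.57%). Log2 fold changes above 0 were found for 41 genes in the first comparison, compared with 46.6% of all genes, and for 47 in the second, compared with 51.9%.

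The Eµ-TCL1 animal was below all 7 other mice for 22 of the 51 genes (43.1%), compared with 14.2% of all tested genes. It was above all of them for 1 gene, Eif2ak3, compared with 21.3% of all tested genes. Set against the 3 double transgenic mice alone it was below all for 33 genes (27.6% of all tested genes) and above all for 6 (39%), and against the 4 Eµ-PRMT5 mice it was below all for 22 (17.9%) and above all for 2 (24.4%). With libraries scaled by their size alone the count below all others was 14, where the share of all genes was 8.18%. Ribosomal protein genes also had their lowest mean in this mouse, at 6.79 log2 CPM, compared with 7.21 to 8.64 in Eµ-PRMT5 mice and 7.81 to 8.004 in Eµ-PRMT5/TCL1 mice. This mouse had the shallowest library, and its genotype, library and individual state cannot be told apart.

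Eif1a had the smallest p of the genes that were lower in the Eµ-TCL1 animal. It encodes an eIF1A protein, which helps to place the initiator tRNA, and was measured at 141, 153, 92.3 and 196 CPM in mice 1 to 4 of Eµ-PRMT5, 105, 113 and 121 CPM in mice 1 to 3 of Eµ-PRMT5/TCL1 and 47.9 CPM in the Eµ-TCL1 animal. The Eµ-TCL1 value was the lowest of 8, with log2 fold changes of 1.24 ± 0.54 for Eµ-PRMT5/TCL1 (unadjusted p = 0.041, adjusted p = 0.778) and 1.61 ± 0.55 for Eµ-PRMT5 mice (unadjusted p = 0.012, adjusted p = 0.709) by edgeR. Eif2s1 differed by 1.38 ± 0.57 (SE) between Eµ-PRMT5 mice and the Eµ-TCL1 animal, with an unadjusted p of 0.031 and an adjusted p of 0.709 by edgeR. Eif3m, an eIF3 subunit gene that overlaps Ccdc73 on the other strand, was measured at 136, 187, 147 and 326 CPM in mice 1 to 4 of Eµ-PRMT5, 167, 184 and 164 CPM in mice 1 to 3 of Eµ-PRMT5/TCL1 and 81.4 CPM in the Eµ-TCL1 animal. Its log2 fold changes were 1.08 ± 0.59 for Eµ-PRMT5/TCL1 and 1.29 ± 0.59 for Eµ-PRMT5 mice (SE, unadjusted p = 0.094 and 0.049 by edgeR).

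Eif4a1 had a log2 fold change of 1.42 ± 0.77 in Eµ-PRMT5/TCL1 mice against the Eµ-TCL1 animal (SE, unadjusted p = 0.088, adjusted p = 0.778 by edgeR), and Eµ-PRMT5 mouse 1 lay at the Eµ-TCL1 level. Eif2ak3 had the opposite sign in both comparisons, with -2.13 ± 0.53 for Eµ-PRMT5/TCL1 (SE, unadjusted p = 0.0016, adjusted p = 0.778 by edgeR) and -1.28 ± 0.51 for Eµ-PRMT5 mice (SE, unadjusted p = 0.029, adjusted p = 0.709 by edgeR). Among the genes downstream of eIF2 phosphorylation, Atf5, a stress transcription factor gene, also stood highest in this mouse, at 4.67, 3.01, 3.65 and 7.84 CPM in mice 1 to 4 of Eµ-PRMT5, 10.3, 2.43 and 3.53 CPM in mice 1 to 3 of Eµ-PRMT5/TCL1 and 50.6 CPM in the Eµ-TCL1 animal.

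The genes with an E-box window were set beside those without one. Between the replicated genotypes the median log2 fold change was -0.08 over the 10 genes with CACGTG and -0.21 over the 31 without. Against the Eµ-TCL1 animal the medians were 0.75 and 0.32 for Eµ-PRMT5/TCL1, and 0.72 and 0.58 for Eµ-PRMT5 mice. Both sets lay on the same side of 0 in each comparison, and no test was made.

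The other genes of the translation pathway were compared in the same fit. The 7 genes called elongation factors here have symbols that begin with Eef. Among them, Eef1e1 and the kinase gene Eef2k do not encode elongation factors. In Eµ-PRMT5/TCL1 against Eµ-PRMT5 mice no gene reached an unadjusted p under 0.05 among 7 tested elongation factors, 7 termination and recycling factors, 13 cap, helicase and poly(A) partners, 8 accessory genes of eIF2, eIF5 and eIF5A, 9 genes that respond to eIF2 phosphorylation, 9 genes from mTORC1 to translation, 9 mitochondrial translation factors and 81 cytosolic ribosomal proteins. Against the Eµ-TCL1 animal, 2 elongation factor genes, 1 cap partner, 1 accessory gene, 1 mTORC1 gene and 21 ribosomal protein genes were higher in Eµ-PRMT5 mice at that threshold (1.96% of all tested genes). In the other direction, 1 gene of the eIF2 phosphorylation response was lower (4.82%). For Eµ-PRMT5/TCL1 mice, 1 mTORC1 gene and 15 ribosomal protein genes were higher (1.75% of all tested genes) and 1 response gene was lower (4.33%). These genes, other than the ribosomal ones, were Eef1d, Eef1e1, Ddx3x, Bzw2, Mlst8 and, lower, Atf5 for Eµ-PRMT5 mice, and Mlst8 and Atf5 for Eµ-PRMT5/TCL1 mice. At the adjusted threshold 0 of them passed. The elongation factors averaged 7.73, 8.15, 8.19 and 8.98 log2 CPM in Eµ-PRMT5 mice, 8.18, 8.16 and 8.42 in Eµ-PRMT5/TCL1 mice and 7.69 in the Eµ-TCL1 animal, so that Eµ-PRMT5 mouse 3, the lowest Eµ-PRMT5 mouse for initiation factors, was not low for them. The termination and recycling factors averaged 6.30, 6.504, 5.52 and 6.89 log2 CPM in mice 1 to 4 of Eµ-PRMT5, where mouse 3 was the lowest, 6.20, 6.08 and 6.20 in the double transgenic mice and 5.62 with Eµ-TCL1 alone.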

How the data were processed

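For each mouse the authors deposited unnormalized counts by gene symbol. The methods state low-input preamplification and the CLEAR workflow with DESeq2 1.20.0, whereas the labels describe a stranded mRNA kit, and the submitters' processing notes name featureCounts of Subread and GRCm38. The methods give STAR and an Ensembl annotation for a bulk protocol with that kit. Whether these apply to the present libraries, and whether strand was used in counting, is not given in the sources used here. Cells holding NA (36919) were not read as 0.

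Groups followed the genotype in the labels. Counts were scaled by TMM, filtered by expression within groups (13173 genes kept) and fitted in a single model of the 3 genotypes with the quasi-likelihood test of edgeR 4.0.16 (R 4.3.3), with Benjamini-Hochberg adjustment over all tested genes. CPM use TMM factors, log2 CPM a prior count of 2, and SE is the log2 fold change over the root of F. Code was tested on simulated data. DESeq2 1.42.0, other scalings, filters and samples were alternatives. Within-library ratios were compared over 35 splits of 7 mice. Positions and exon lengths are from GENCODE M21 (GRCm38), which held all 52 genes.

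Genes named were the 4 of smallest p per comparison, fixed factors, extremes of level and spread, and non-overlapping genes. These genes and all lists were chosen with earlier results of these data known. Replicates are separate mice. One listed gene is not reported here.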

Additional observations from a re-analysis of the deposited data

Results flagged for a closer look

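In Eµ-PRMT5 mice, the 1 group of 4 to 10 samples, 67 values were examined for a mouse that stood apart from the other 3 by more than Dixon's 95% critical value of the gap as a share of the range. Such a gap occurs by chance in about 1 of 20 groups, or 3.4 of these 67, and 3 were found. Eif2s1, the eIF2 alpha subunit gene, was low in Eµ-PRMT5 mouse 3 at 143 CPM, a gap of 0.831 of the range. Eif3f, an eIF3 subunit gene, was high in Eµ-PRMT5 mouse 4 at 200 CPM (gap 0.885). Eif5a2 was high in Eµ-PRMT5 mouse 2 at 6.65 CPM (gap 0.967), which rests on 42 counts.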

How the results depend on the processing

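In every setting run, 0 initiation factor genes passed the adjusted threshold in the 3 comparisons, and the medians against the Eµ-TCL1 animal stayed above 0, at 0.51 to 0.75 and 0.51 to 0.80 with 1 mouse left out and at 0.40 and 0.45 by library size alone, where the medians of all genes were -0.30 and -0.21. Thinning all libraries to the smallest total, a setting added later, gave medians of 0.567 and 0.638 against the Eµ-TCL1 animal, with 40 and 47 genes above 0 (46.1% and 51.4% of all genes). Between the replicated genotypes it gave -0.195, with 10 genes above 0 (40.3% of all genes). The median between the replicated genotypes ran from -0.34 to 0.03 with 1 mouse left out, turned to 0.03 without Eµ-PRMT5 mouse 4, and was 0.02 over mice 1 to 3. The replicate block covered the same mice 1 to 3, so it too left out Eµ-PRMT5 mouse 4. With this block the median was 0.05, with 29 of 51 genes above 0 (48.7% of all genes) and 0 called. In the labels the same-numbered mice share only a number. Mice 1 and 2 of both genotypes had Xist counts and no Ddx3y value, and mice 3 of both had Ddx3y counts. The block therefore also follows these sex-linked genes. Deviations of same-numbered mice from the group means correlated at -0.0206, 0.154 and 0.16, and mice 2 and 3 but not mouse 1 correlated best with their own. Unadjusted counts for Eµ-PRMT5 against Eµ-TCL1 went from 4 to 11 without Eµ-PRMT5 mouse 1 and to 8 without mouse 3, where the share of all genes went from 6.78% to 8.17% and 16.2%, and that for Eµ-PRMT5/TCL1 against Eµ-TCL1 from 2 to 17 with only those 2 groups in the fit (6.09% and 18.1% of all genes). Genes lowest in the Eµ-TCL1 animal numbered 14 by library size alone (8.18% of all genes) and 22 to 30 with 1 mouse left out (14.9 to 20.3%), 30 without Eµ-PRMT5 mouse 3 (17.8%). For the 3 eIF2 alpha kinases the median in place of the mean gave a difference of -0.75 between the replicated genotypes, against -0.24. Eif2ak3 was the middle gene in every replicated mouse, so this median is the value of Eif2ak3 alone. The fitted log2 fold changes of Eif2ak1 and Eif2ak4 were 0.14 and -0.12.

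Of 451 values of named genes, 39 turned sign. Between the replicated genotypes, upper-quartile scaling gave 0.023 for Eif4g1, 0.072 for Eif4ebp1 and 0.011 for Eif4ebp2, library size alone 0.034 for Eif4ebp1, and at least 10 counts in every sample 0.011 for Eif4ebp1. The replicate block, which left out Eµ-PRMT5 mouse 4, gave 0.29 for Eif4e, 0.16 for Eif4g1, 0.11 for Eif4g2, 0.29 for Eif5a, 0.039 for Eif6 and 0.21 for Eif2s3x. The same mice without a block, chosen after seeing the data, gave 0.10 for Eif4e, 0.13 for Eif4g1, 0.090 for Eif4g2, 0.016 for Eif4ebp2, 0.29 for Eif5a, 0.038 for Eif6 and 0.17 for Eif2s3x. With 1 mouse left out, the range was -0.0070 to 0.27 for Eif2ak1, -0.48 to 0.17 for Eif2s3x, -0.22 to 0.30 for Eif4a1, -0.45 to 0.10 for Eif4e, -0.51 to 0.39 for Eif4ebp1, -0.45 to 0.11 for Eif4ebp2, -0.25 to 0.13 for Eif4g1, -0.32 to 0.093 for Eif4g2, -0.52 to 0.29 for Eif5a, -1.25 to 0.029 for Eif5b and -0.33 to 0.039 for Eif6. The ratio differences ran from -0.030 to 0.93 for Eif4a1/Eif4a2, -0.57 to 0.50 for Eif4e/Eif4ebp1, -0.13 to 0.51 for Eif4e/Eif4ebp2, -0.58 to 1.08 for Eif4ebp1/Eif4ebp2 and -0.11 to 0.26 for Eif4g1/Eif4g2. The cause of these changes was not tested. The fits with and without the block and the fit without Eµ-PRMT5 mouse 4 all lack that mouse, so they are not separate checks. Depth limits Eif5a2 and Eif4ebp3 most.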

Other observations

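Subunits of 1 complex were out of step in Eµ-PRMT5 mouse 1. The eIF3 subunit genes Eif3a and Eif3c, whose products form the core of the complex, stood at 838, 591, 301 and 596 CPM and 1049.9, 821, 245 and 593 CPM in mice 1 to 4 of Eµ-PRMT5, so that mouse 1 was the highest. Eif3k and Eif3d, which encode other subunits of it, stood at 62.1, 118, 159 and 292 CPM and 96.4, 203, 145 and 372 CPM in the same mice, with mouse 1 the lowest. In Eµ-PRMT5/TCL1 mice the values were 486, 476 and 384 CPM for Eif3a, 519.9, 442 and 423 CPM for Eif3c, 166, 156 and 168 CPM for Eif3k and 135, 180.2 and 216 CPM for Eif3d. The library of mouse 1 had values for 16379 symbols, compared with 20411 to 21475 in the other libraries. Across the 51 genes, Spearman's rho of exon length with the deviation of a mouse from the median of 8 was 0.285 in Eµ-PRMT5 mouse 1, 0.280 in the Eµ-TCL1 animal and -0.403 in Eµ-PRMT5/TCL1 mouse 1, and over the 12945 tested genes with a length it was 0.096, 0.057 and -0.113. Genes of 1 library are not independent, and the part of length in these values was not tested. These genes were chosen after their values were seen.

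Eif4e3, a cap-binding relative of Eif4e, was highest in a double transgenic mouse, at 14.6, 13.5, 22.8 and 47.9 CPM in mice 1 to 4 of Eµ-PRMT5, 68.9, 23.2 and 20.7 CPM in mice 1 to 3 of Eµ-PRMT5/TCL1 and 21.9 CPM in the Eµ-TCL1 animal, and was also chosen after its values were seen.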
